A study of Mus musculus with 9 samples.

Results

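The Osr, Meox, Ebf and Prrx transcription factors, with Tcf21, were followed across sorted cells of the embryonic mouse knee. The genes are Osr1, Osr2, Meox1, Meox2, Ebf1, Ebf2, Ebf3, Prrx1, Prrx2 and Tcf21, 10 of the 54532 genes in the deposited table, matched by Ensembl identifier to GENCODE M21 symbols. They were chosen by name, as factors of connective tissue. No measured value entered the rule, but earlier results of these data were known when the choice was made. Of the 10, 9 had a mean of at least 10 normalized counts over the 9 libraries and were tested, and Tcf21 did not reach that level.

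The Osr proteins are zinc finger factors of the intermediate mesoderm, of limb fibroblasts and of the mesenchyme that forms synovial joints. The Meox proteins are homeodomain factors of the somite, and the Ebf proteins are helix-loop-helix factors known from B cells, fat and bone marrow stroma. The Prrx proteins are paired-type homeodomain factors of limb bud mesenchyme, and Tcf21 is a basic helix-loop-helix factor of visceral mesoderm and of fibroblasts that arise from the epicardium. Connective tissue at a joint includes tendon, ligament, capsule and the fibroblasts within muscle, and it forms beside cartilage, which depends on Sox9.

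Knees were dissected at E14.5 from embryos that carried the Creb53XHA-P2A-tdTomato/+ allele pair together with Sox9iresEGFP/+, so all libraries came from cells heterozygous for both reporter alleles. Cells were sorted into 3 populations, with 3 libraries each, from litters 1, 2 and 5. The deposited counts are labelled as leaving out the litters numbered between 2 and 5. Double-positive cells held tdTomato and EGFP, RFP-only cells held tdTomato without EGFP, and GFP-only cells held EGFP without tdTomato. Each library was made with the Nextera XT kit from RNA of about 250000 to 500000 cells, and the sources used here do not give the number of embryos pooled per litter. The tdTomato reporter is driven by the Creb5 locus, which encodes a bZIP transcription factor, and EGFP by the Sox9 locus, which encodes the central factor of cartilage. The question that the sort addresses is how cells that transcribe both genes differ from cells that transcribe either.

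The libraries held 25199258 to 47079305 reads, and the values below are normalized counts, which are reads divided by a factor of each library. The reporters' host genes matched the sort labels. Creb5 had 2754 to 3408 normalized counts in double-positive libraries and 2006 to 3531 in RFP-only libraries, against 138 to 274 in GFP-only cells. Sox9 had 16565 to 29767 in double-positive libraries and 1091 to 1891 in RFP-only libraries, against 22771 to 37991 in GFP-only cells. The GFP-only library of litter 5 stood apart from its replicates: the chi-square per degree of freedom of its reads was 339 against GFP-only litter 1, where the closest pair of replicates, RFP-only litters 1 and 5, reached 42.5. No replicate pair agreed within sampling noise, so all 9 libraries were kept as separate samples.

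Most of the factors were higher in both tdTomato-positive populations than in GFP-only cells, by 2.83 to 21.9 times in double-positive cells and by 1.98 to 30.1 times in RFP-only cells for those that passed the test. In double-positive against GFP-only cells 6 of the 9 tested factors were higher, namely Osr1, Osr2, Meox1, Meox2, Ebf2 and Ebf3, at a limma adjusted p under 0.05, where 5.27% of all 17764 tested genes were higher and 8.29% were called in either direction. For RFP-only relative to GFP-only cells 7 were higher, the same 6 and Ebf1, where 11.8% of all genes were higher and 20.3% were called in either direction. In double-positive against RFP-only cells Prrx2 alone was lower, 1 of 9, where 1.05% of all genes were lower and 2.85% were called in either direction, and the limma fit with the litter as a replicate block called 2, Prrx2 and Osr1. Across the 3 populations together, 8 of 9 differed by limma's F test, where 17.2% of all genes did, and Prrx1 was the exception at an adjusted p of 0.68. When the GFP-only library of litter 5 was left out, these counts were 6, 6 and 4 for the 3 comparisons. Leaving out all of litter 1 or all of litter 2 brought the 6 factors higher in double-positive cells down to 2, Osr1 and Osr2, with 2 libraries left per population. The shares of all genes given above belong to the fit on all 9 libraries and not to these fits. Whether a lower level reflects fewer cells of a type or less RNA per cell cannot be told apart in bulk samples.

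No factor was lower in double-positive cells than in GFP-only cells by limma, where 3.02% of all genes were, although 1 was at an unadjusted p under 0.05, 0 by edgeR and 1 by DESeq2. That factor was Prrx2. The shares of all genes beside these counts belong to limma's adjusted p. No such share is given for the unadjusted, edgeR and DESeq2 counts. No factor was lower in RFP-only cells than in GFP-only cells by limma, where 8.48% of all genes were, and the count was 0 at an unadjusted p under 0.05, 0 by edgeR and 0 by DESeq2. No factor was higher in double-positive cells than in RFP-only cells by limma, where 1.8% of all genes were, and the count was likewise 0 at an unadjusted p under 0.05, 0 by edgeR and 0 by DESeq2. The median log2 fold change of the 9 factors was 1.95 in double-positive against GFP-only cells, 2.49 in RFP-only relative to GFP-only cells and -0.83 in double-positive against RFP-only cells. Over all tested genes the medians were 0.04, 0.05 and -0.01 in the same order of comparisons. The comparisons share libraries, so their values are given side by side and not as independent results.

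**Figure D1:**
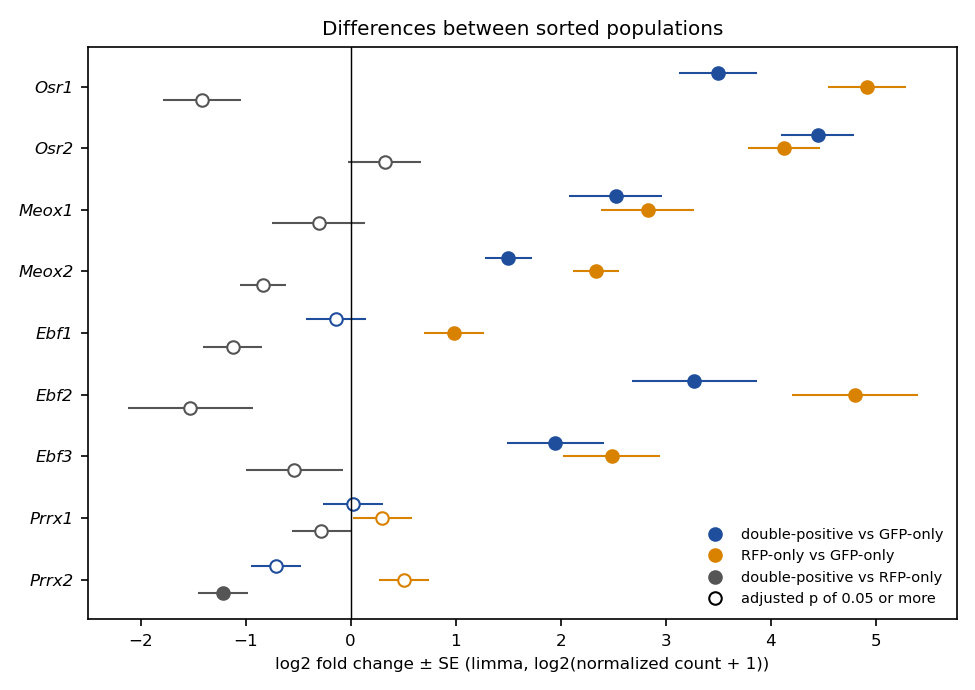
Log2 fold changes of the 9 tested factors in each comparison, with the standard error of the limma fit as bars and filled points for an adjusted p under 0.05. Osr1, Osr2, Meox1, Meox2, Ebf2 and Ebf3 lie above 0 against GFP-only cells in both tdTomato-positive populations, and Prrx2 is the filled point below 0 in double-positive against RFP-only cells.

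Osr1 (ENSMUSG00000048387), at chr12:9570116-9581500 on the plus strand of GRCm38, encodes a zinc finger factor that marks fibroblasts of muscle connective tissue in the limb. It had 2109.9, 4805 and 1913 normalized counts in the double-positive libraries of litters 1, 2 and 5, 6995, 8821 and 5985 in the RFP-only libraries, and 158, 322 and 262 in the GFP-only libraries. No group overlapped another: RFP-only libraries were the highest and GFP-only libraries the lowest. On the log2 scale the difference was 3.50 ± 0.37 (SE) in double-positive against GFP-only cells (limma adjusted p = 0.000462) and 4.91 ± 0.37 in RFP-only relative to GFP-only cells (limma adjusted p = 1.25e-05). Against RFP-only cells, double-positive cells were at -1.42 ± 0.37, which missed the threshold at a limma adjusted p of 0.0734. That adjusted p was 0.0287 with the litter as a replicate block, and 0.019 when the litter 2 double-positive library was left out. All 3 litters had the lower value in double-positive cells, with log2 ratios of -1.73, -0.88 and -1.65.

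Osr2 (ENSMUSG00000022330), at chr15:35296098-35303305 on the plus strand, is the paralogue that is required for growth of the palate and acts with Osr1 in joint formation. It had 9635, 6978 and 5582 normalized counts in double-positive libraries, 5437, 5980.4 and 5894 in RFP-only libraries, and 177, 431 and 467 in GFP-only libraries. The double-positive and RFP-only ranges overlapped, and both lay above every GFP-only library. Its log2 fold change was 4.45 ± 0.35 in double-positive against GFP-only cells (limma adjusted p = 0.000104) and 4.13 ± 0.35 in RFP-only relative to GFP-only cells (limma adjusted p = 2.16e-05), and each call held under all 24 alternatives. Set against RFP-only cells, the double-positive value was 0.32 ± 0.35 (limma adjusted p = 0.854), and the litters' log2 ratios were 0.83, 0.22 and -0.08.

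Meox1 (ENSMUSG00000001493), at chr11:101877510-101894374 on the minus strand, encodes a homeodomain factor of the somite and its sclerotome. It had 1086, 1969 and 898 normalized counts in double-positive libraries, 1664, 1283 and 1695 in RFP-only libraries, and 291, 340.3 and 100.4 in GFP-only libraries. Double-positive and RFP-only libraries overlapped and all 6 exceeded every GFP-only library. The log2 fold change was 2.52 ± 0.45 in double-positive against GFP-only cells (limma adjusted p = 0.00688) and 2.83 ± 0.45 in RFP-only relative to GFP-only cells (limma adjusted p = 0.00125). Double-positive against RFP-only cells gave -0.30 ± 0.45 (limma adjusted p = 0.922), with litter 2 higher in double-positive cells and litters 1 and 5 lower.

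Meox2 (ENSMUSG00000036144), at chr12:37108540-37179534 on the plus strand, encodes the relative that is needed for limb muscle development. It had 2449, 3497 and 2222 normalized counts in double-positive libraries, 4739, 4734 and 4812 in RFP-only libraries, and 1073, 941 and 826 in GFP-only libraries. No group overlapped another: the means were 2723 ± 680.3 in double-positive libraries and 4761 ± 43.7 in RFP-only libraries, against 947 ± 123 in GFP-only libraries (SD, n = 3 each). On the log2 scale the difference was 1.50 ± 0.22 in double-positive against GFP-only cells (limma adjusted p = 0.00265) and 2.34 ± 0.22 in RFP-only relative to GFP-only cells (limma adjusted p = 4.9e-05). In double-positive against RFP-only cells it was -0.83 ± 0.22, with all 3 litters lower, and missed the threshold at a limma adjusted p of 0.0747. That adjusted p was 0.0436 when the litter 2 double-positive library was left out and 0.0252 when the litter 5 GFP-only library was.

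**Figure D2:**
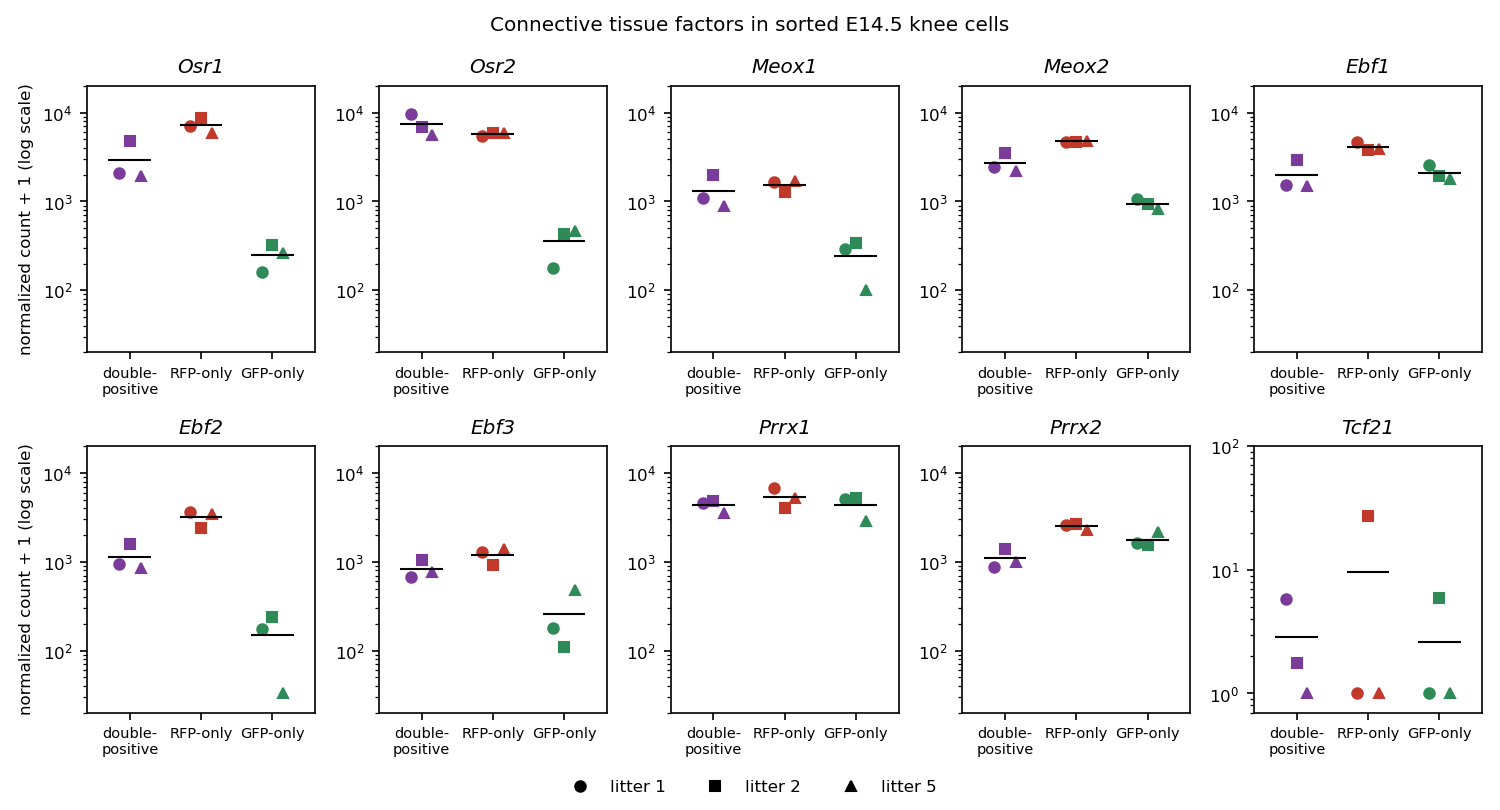
Normalized counts of the 10 factors in each library plus 1, on a log axis, by population, with a point for each library, shaped by litter, and a bar for the mean. The GFP-only libraries lie lowest for Osr1, Osr2, Meox1, Meox2, Ebf2 and Ebf3, while Prrx1 overlaps between all 3 populations and Tcf21 has reads in 4 of 9 libraries.

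Ebf1 (ENSMUSG00000057098), at chr11:44617317-45008091 on the plus strand, encodes the factor that sets the B cell lineage and also acts in adipocytes. It had 1520.0, 2941 and 1480.4 normalized counts in double-positive libraries, 4644, 3779 and 3905 in RFP-only libraries, and 2605, 1915 and 1773 in GFP-only libraries. The RFP-only libraries were above both other groups, which overlapped each other. Its log2 fold change was 0.98 ± 0.28 in RFP-only relative to GFP-only cells (limma adjusted p = 0.0313), a call that ended on leaving out any 1 RFP-only library or the GFP-only library of litter 2 or 5 (adjusted p 0.0618 to 0.118). In double-positive against GFP-only cells it was -0.14 ± 0.28 (limma adjusted p = 0.794). Against RFP-only cells, double-positive cells were at -1.12 ± 0.28 (limma adjusted p = 0.0626), and the adjusted p became 0.0154 when the litter 2 double-positive library was left out and 0.0357 when the litter 5 GFP-only library was.

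Ebf2 (ENSMUSG00000022053), at chr14:67233292-67430918 on the plus strand, encodes the family member known from brown fat and osteoblasts. It had 933, 1585 and 845 normalized counts in double-positive libraries, 3635, 2385 and 3449.5 in RFP-only libraries, and 172, 238 and 32.6 in GFP-only libraries. No group overlapped another, and the GFP-only library of litter 5, with 24 reads, was the lowest of the 9. The log2 fold change was 3.27 ± 0.60 in double-positive against GFP-only cells (limma adjusted p = 0.0082) and 4.80 ± 0.60 in RFP-only relative to GFP-only cells (limma adjusted p = 0.000316). When the GFP-only library of litter 5 was left out these values were 2.41 and 3.93, and both calls held. Set against RFP-only cells, the double-positive value was -1.53 ± 0.60 (limma adjusted p = 0.265), and that adjusted p was 0.013 when the litter 5 GFP-only library, which enters through the shared estimate of spread, was left out.

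Ebf3 (ENSMUSG00000010476), at chr7:137193673-137314445 on the minus strand, encodes the member known from the stromal cells of the bone marrow niche. It had 668, 1045 and 769 normalized counts in double-positive libraries, 1289.6, 929 and 1378 in RFP-only libraries, and 179, 108 and 480.3 in GFP-only libraries. Both tdTomato-positive groups overlapped each other and lay above the GFP-only libraries, of which litter 5 was here the highest. On the log2 scale the difference was 2.49 ± 0.46 in RFP-only relative to GFP-only cells (limma adjusted p = 0.00333) and 1.95 ± 0.46 in double-positive against GFP-only cells (limma adjusted p = 0.0261). The second call ended on leaving out any 1 double-positive library or the GFP-only library of litter 1 or 2 (adjusted p 0.0567 to 0.109). With the litter 5 GFP-only library left out, the values were 3.08 for RFP-only and 2.54 for double-positive cells relative to GFP-only cells. Double-positive against RFP-only cells gave a log2 fold change of -0.54 ± 0.46 (limma adjusted p = 0.778). Exons of Ebf2 share 424 bases with Gm10860 and exons of Ebf3 share 355 bases with Gm45278, both on the opposite strand, and reads there cannot be told apart because the sources used here do not say whether counting used strand.

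Prrx1 (ENSMUSG00000026586), at chr1:163245119-163313710 on the minus strand, encodes a factor of limb bud mesenchyme whose enhancer is widely used to drive Cre in the limb. It had 4643, 4859 and 3533 normalized counts in double-positive libraries, 6764, 4026 and 5223 in RFP-only libraries, and 5141, 5191 and 2844 in GFP-only libraries. All 3 groups overlapped. Its log2 fold change was 0.02 ± 0.28 in double-positive against GFP-only cells (limma adjusted p = 0.971), 0.30 ± 0.28 in RFP-only relative to GFP-only cells (limma adjusted p = 0.477) and -0.28 ± 0.28 in double-positive against RFP-only cells (limma adjusted p = 0.841). These p-values do not show that the levels were equal.

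Prrx2 (ENSMUSG00000039476), at chr2:30834972-30881251 on the plus strand, encodes the paralogue that acts with Prrx1 in limb and skull skeleton. It had 884, 1389 and 1006 normalized counts in double-positive libraries, 2618, 2651 and 2251 in RFP-only libraries, and 1638, 1529 and 2156 in GFP-only libraries. No group overlapped another, and the double-positive libraries were below both other groups, which was so for no other tested factor. The log2 fold change was -1.22 ± 0.24 in double-positive against RFP-only cells (limma adjusted p = 0.0201), lower in 3 of 3 litters. That call ended when the litter 1 or litter 5 double-positive library, or any of the RFP-only libraries, was left out (adjusted p 0.0617 to 0.101). In double-positive against GFP-only cells it was -0.71 ± 0.24 (limma adjusted p = 0.0907), and by DESeq2 on the recovered reads the adjusted p was 0.0421. For RFP-only relative to GFP-only cells it was 0.51 ± 0.24 (limma adjusted p = 0.151).

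Groups that did not overlap give a second count for the same data. In double-positive against GFP-only cells 6 factors had all 3 libraries above, where 14.3% of all genes did, and Prrx2 alone had all 3 below, where 13.8% did. For RFP-only relative to GFP-only cells 8 of 9 factors had all 3 libraries above, all but Prrx1, where 20.9% of all genes did. In double-positive against RFP-only cells 5 factors had all 3 libraries below, namely Osr1, Meox2, Ebf1, Ebf2 and Prrx2, where 12.6% of all genes did. Of those 5, Prrx2 passed the test.

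Tcf21 (ENSMUSG00000045680), at chr10:22817281-22820174 on the minus strand, was close to the limit of detection. Its reads numbered 5, 1 and 0 in double-positive libraries, 0, 23 and 0 in RFP-only libraries, and 0, 4 and 0 in GFP-only libraries. The RFP-only library of litter 2 held most of them, and 5 of 9 libraries held none. A count of 0 allows up to 3 reads from counting error alone, and no fold was computed.

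Levels between genes were compared as normalized counts per kilobase of the union of annotated exons. In double-positive cells Osr2 had the highest mean, 2042 ± 568 per kilobase (SD, n = 3), followed by Osr1 at 1424 ± 782 and Meox2 at 1154 ± 288, and each of these overlapped its neighbour. Meox1 at 591 and Prrx2 at 557 overlapped each other and lay below Meox2. Prrx1 at 393 came next, then Ebf1 at 203 and Ebf2 at 162, which overlapped each other, and Ebf3 at 89.7.

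In RFP-only cells Osr1 was highest at 3517 ± 696 per kilobase and Meox2 second at 2018 ± 18.5, with Osr2 at 1593 and Prrx2 at 1278, and no neighbours among these 4 overlapped. Meox1, Prrx1, Ebf2 and Ebf1, with means of 695 to 421 per kilobase, each overlapped the next. In GFP-only cells the order was led by Prrx2 at 905 ± 171 per kilobase, separate from Meox2 at 401, which overlapped Prrx1 at 397. Prrx1 in turn overlapped Ebf1 at 215. Osr1 and Osr2, the leading genes of RFP-only and double-positive cells, stood at 119.7 and 98.9 per kilobase there, overlapping Meox1. Ebf2 was the lowest of the 9 in GFP-only cells, at 21.3 per kilobase, and overlapped Ebf3. The per-kilobase level uses all annotated exons, and which isoforms were read was not tested.

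**Figure D3:**
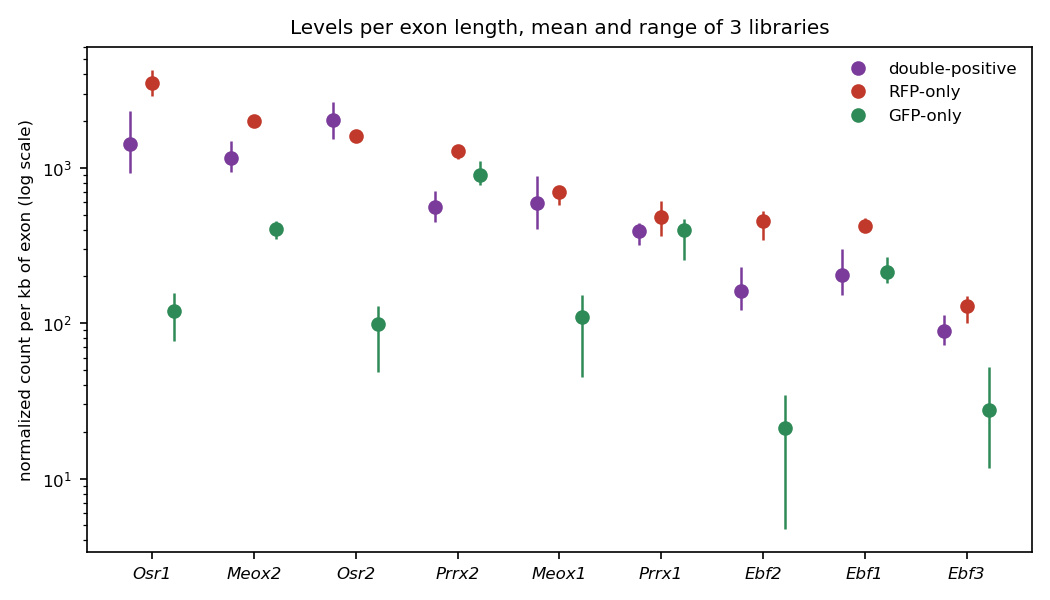
Normalized counts per kilobase of exon on a log axis for the 9 tested factors in each population, with a point for the mean and a line for the range of 3 libraries. Osr2 leads in double-positive cells at 2042, Osr1 in RFP-only cells at 3517 and Prrx2 in GFP-only cells at 905.

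Of 6 ratios between paralogues, 1 passed the correction when labels were permuted over all 9 libraries, and 0 passed when they were permuted within litters. The log2 ratio of Ebf1 to Ebf2 normalized counts, not scaled for length, was 0.70, 0.89 and 0.81 in double-positive libraries, 0.35, 0.66 and 0.18 in RFP-only libraries, and 3.91, 3.01 and 5.72 in GFP-only libraries. The 3 groups were separate, with GFP-only cells highest. The value of 5.72, in the GFP-only library of litter 5, rests on 24 reads of Ebf2. The exact permutation test of the difference among the 3 groups gave p = 0.00357, the smallest that permuting 9 libraries in 3 groups allows, and 0.0214 adjusted over the 6 ratios. Permuted within litters, which pair the libraries by label, the exact p was 0.0278, the smallest that this permutation allows, and 0.0556 adjusted over the 6 ratios. The ratio thus missed the threshold, but at the smallest possible p its adjusted value depended on the other ratios. This permutation could not settle the call from the ratio's own values. Leaving out 1 library in turn kept the exact p over all libraries at or below 0.00714. As shares of the summed per-kilobase level of the Ebf family including Ebf4, Ebf1 held 30.6% ± 4.77 in double-positive libraries and 36.5% ± 1.15 in RFP-only libraries, against 57.6% ± 10.8 in GFP-only cells (SD, n = 3 each). Ebf2 held 24.6% ± 2.47 in double-positive libraries and 39.2% ± 5.35 in RFP-only libraries, against 5.13% ± 3.16 in GFP-only cells. Ebf4 held 30.7% ± 6.93 in double-positive libraries, close to Ebf1, and 13.1% ± 5.87 in RFP-only libraries. In GFP-only cells Ebf4 held 28.6% ± 14.9 and ranged from 14.4% to 44.1%, so the shares there varied widely between libraries.

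The Osr1 to Osr2 ratio had its lowest mean in double-positive cells. It was -2.19, -0.54 and -1.54 (log2) in double-positive libraries, 0.36, 0.56 and 0.02 in RFP-only libraries, and -0.16, -0.42 and -0.83 in GFP-only libraries. RFP-only libraries were above every double-positive and GFP-only library, and the double-positive and GFP-only ranges overlapped. The exact permutation p over the 3 groups was 0.0214 and 0.0643 adjusted over the 6 ratios, so it did not pass the correction, and within litters the exact p was 0.0278 and 0.0556 adjusted. The other ratios, Meox1 to Meox2, Ebf1 to Ebf3, Ebf2 to Ebf3 and Prrx1 to Prrx2, had exact permutation p-values of 0.0393 to 0.161 and adjusted values of 0.0786 to 0.161. Within litters Ebf1 to Ebf3 also had an exact permutation p of 0.0278, and 0.0556 adjusted. Meox1 to Meox2, Ebf2 to Ebf3 and Prrx1 to Prrx2 had 0.139 to 0.194 within litters, and 0.194 adjusted. Prrx1 to Prrx2 was 2.00 ± 0.34 (log2, SD, n = 3) in double-positive libraries and 1.06 ± 0.41 in RFP-only libraries, against 1.27 ± 0.76 in GFP-only cells.

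**Figure D4:**
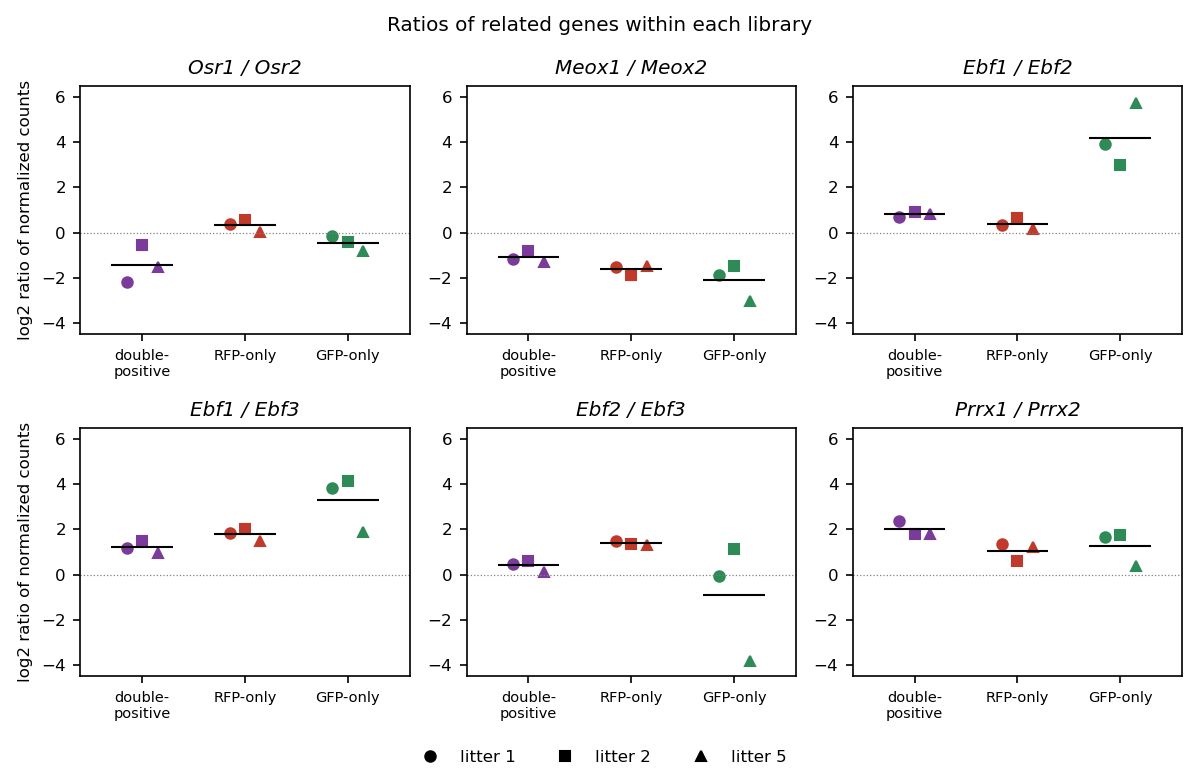
Log2 ratios of paralogues, not scaled for length, with a point for each library, shaped by litter, and a bar for the mean of each population. Ebf1 to Ebf2 separates GFP-only libraries (3.01 to 5.72) from double-positive libraries (0.70 to 0.89) and RFP-only libraries (0.18 to 0.66).

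Promoter sequence is shown for 3 factors with different patterns: Meox2 and Ebf3, which were higher in both tdTomato-positive populations than in GFP-only cells, and Prrx1, which was not called in any comparison. The sequences are the bases before the annotated start from RefSeq on GRCm38.p6, read 5′ to 3′ on the gene's strand, and bases inside annotated exons were left off. RefSeq windows were found for 6 of the 10 factors. Capitals mark TAATTA, a homeodomain core.
Meox2 promoter, chr12:37108290-37108539, plus strand: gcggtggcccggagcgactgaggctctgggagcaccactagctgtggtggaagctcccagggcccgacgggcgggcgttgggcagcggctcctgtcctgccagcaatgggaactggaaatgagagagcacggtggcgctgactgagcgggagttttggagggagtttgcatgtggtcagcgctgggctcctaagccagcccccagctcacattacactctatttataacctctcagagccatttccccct
Ebf3 promoter, chr7:137314446-137314695, minus strand: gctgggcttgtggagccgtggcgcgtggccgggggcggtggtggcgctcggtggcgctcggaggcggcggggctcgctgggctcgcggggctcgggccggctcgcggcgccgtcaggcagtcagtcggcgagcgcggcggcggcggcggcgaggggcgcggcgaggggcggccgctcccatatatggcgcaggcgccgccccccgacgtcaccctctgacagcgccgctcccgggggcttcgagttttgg
Prrx1 promoter, chr1:163313711-163313900, minus strand: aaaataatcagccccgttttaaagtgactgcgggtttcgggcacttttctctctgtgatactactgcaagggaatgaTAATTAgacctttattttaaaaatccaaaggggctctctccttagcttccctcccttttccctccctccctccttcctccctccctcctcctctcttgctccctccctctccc
The Meox2 stretch had 62% G and C, the Ebf3 stretch 80% and the Prrx1 stretch 48.9%. Both strands of the 250 bases before each start were searched for TGACGTCA, the full CRE site bound by bZIP factors, for TGANTCA, an AP-1 site, for the Ebf palindrome, and for TAATTA. Of 32851 promoters, 1.55%, 6.75%, 0.779% and 4.84% held them in that order. Among the 7 windows of the 6 factors the only match was TAATTA in Prrx1, 173 to 168 bases before the RefSeq start. The last 60 bases before that start lie in annotated exons and are not printed. The Prrx2 window and an Ebf1 window lay downstream of the start of an annotated exon. No stretch was left in them after exon bases were taken off. These matches describe letters in these windows and nothing about binding.

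Among double-positive libraries, litter 2 held the highest value for 8 of the 9 tested factors, all but Osr2, where 34.2% of all tested genes were highest in that library. Litter 5 held the lowest value for 7 of 9, where 35.3% of all genes were lowest there. The summed level of 36 fibroblast matrix and surface genes was 432761 in the double-positive library of litter 1, 920546 in litter 2 and 618670.1 in litter 5, so litter 2 was also the highest for that list. The summed level of 15 endothelial markers was likewise highest in litter 2, at 8213 against 2291 in litter 1 and 5300.4 in litter 5. Erythroid sums and Schwann cell and neuron sums were also highest there. The sums of other lists went differently. Each sum, the fibroblast sum included, gives most weight to the genes with the highest counts. In double-positive libraries Egr1 averaged 21279 ± 14100 normalized counts (SD, n = 3) among the other limb factors. Among the partners Id3 averaged 25193 ± 6438, among the fibroblast genes Col3a1 212920 ± 77541, and among the adipogenic genes Dlk1 96109 ± 27953. The other limb factors summed lowest in litter 2, at 84574 against 85246 in litter 1 and 98360 in litter 5, as did the partners and relatives. Adipogenic, cartilage, muscle, pericyte and blood lists were highest in litter 5, and the interzone and epidermal lists in litter 1. The part of any list in the factors' litter differences was not tested.

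For each tested factor the gene with the most similar pattern over the 9 libraries was found among 14245 genes by the root mean square difference of centred log2 values. The smallest differences were 0.14 for Prrx1 with Prpf18, a splicing factor, and 0.15 for Meox2 with Syne2, a nuclear envelope protein. The values were not scaled for spread, so a gene that varied little lies near many others. For Prrx1, 4282 genes were closer than its nearest factor, Ebf1, and for Meox2, 584 were closer than Meox1. Osr1 was nearest to Thbs4, a matrix protein of tendon, at 0.30, and Thbs4 had 3137 ± 1114 normalized counts in double-positive libraries and 8059 ± 556 in RFP-only libraries, against 240.4 ± 83.3 in GFP-only cells. Osr2 was nearest to Rgs5, a pericyte gene, at 0.38. The nearest genes of Meox1, Ebf1, Ebf2, Ebf3 and Prrx2 were Adamts7 at 0.26, Bend6 at 0.22, Atp6v0e2 at 0.37, Bik at 0.36 and Nxn at 0.21. Between factors, Ebf1 and Prrx2 were nearest each other at 0.37, with 69 genes closer to Ebf1 and 57 closer to Prrx2, and Osr1 and Osr2 differed by 0.84, with 98 genes closer to Osr1 and 41 closer to Osr2.

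Counts by limma's adjusted p in the lists below are to be read beside the shares of all tested genes. Counts at an unadjusted p, by edgeR or by DESeq2 have no such share beside them. In double-positive against GFP-only cells 5.27% were higher and 3.02% lower. For RFP-only relative to GFP-only cells the shares were 11.8% and 8.48%, and for double-positive against RFP-only cells 1.8% and 1.05%. A list of other transcription factors of limb connective tissue and patterning held 26 genes. Of them 9 were higher in double-positive cells than in GFP-only cells, with a median log2 fold change of 1.26, and none was lower by limma (1 at an unadjusted p under 0.05, 0 by edgeR and 1 by DESeq2). For RFP-only relative to GFP-only cells 15 were higher and 1 was lower, with a median of 1.36. In double-positive against RFP-only cells 2 were higher and 3 lower, with a median of -0.23. Tbx5, the forelimb T-box factor, had the largest named change against GFP-only cells, at 4.53 ± 0.35 in double-positive cells (limma adjusted p = 0.000104) and 3.03 ± 0.35 in RFP-only cells (limma adjusted p = 0.000186). Tbx18, a T-box factor of limb and ureter mesenchyme, was 2.61 ± 0.24 higher in double-positive cells and 2.27 ± 0.24 higher in RFP-only cells than in GFP-only cells (log2). Mkx, a tendon homeobox factor, was 1.86 ± 0.30 higher in double-positive cells than in GFP-only cells. Twist1 and Twist2, basic helix-loop-helix factors of mesenchyme, were lower in double-positive cells than in RFP-only cells, at -1.21 ± 0.24 and -1.53 ± 0.28 (limma adjusted p = 0.0239 and 0.0143).

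A further list held 21 partners, relatives and inhibitors of the 10 factors. In double-positive against GFP-only cells 2 were higher and 1 lower, with a median of 0.60. For RFP-only relative to GFP-only cells 6 were higher and 2 lower, with a median of 0.85, and in double-positive against RFP-only cells 2 were higher and 1 lower, with a median of -0.07. Pax1 and Pax9, paired-box factors of the sclerotome, were 5.05 ± 1.28 and 4.85 ± 0.58 higher (log2) in double-positive cells than in GFP-only cells (limma adjusted p = 0.0343 and 0.000991). Nkx3-2, a homeodomain factor that acts with the Meox genes in sclerotome, was -2.14 ± 0.38 in double-positive against GFP-only cells and -3.92 ± 0.38 in RFP-only relative to GFP-only cells (limma adjusted p = 0.00749 and 6.75e-05). Msc, the relative of Tcf21 known from muscle precursors, was 4.37 ± 0.52 in RFP-only relative to GFP-only cells and -3.16 ± 0.52 in double-positive against RFP-only cells (limma adjusted p = 0.000215 and 0.00765). Tcf12, an E protein that pairs with basic helix-loop-helix factors, was 1.77 ± 0.30 in RFP-only relative to GFP-only cells (limma adjusted p = 0.00213). Ebf4 did not pass, at 0.98 ± 0.50 in double-positive and 0.54 ± 0.50 in RFP-only relative to GFP-only cells (limma adjusted p = 0.254 and 0.475). Zfp423 and Zfp521, zinc finger cofactors of Ebf proteins, did not pass either, at 0.89 ± 0.44 and 1.08 ± 0.46 in double-positive against GFP-only cells (limma adjusted p = 0.244 and 0.176).

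Genes of fibroblast matrix and surface were counted beside the factors. Of the 36, 11 were higher in double-positive cells than in GFP-only cells and 1 was lower, with a median log2 fold change of 1.36, and 27 were higher and 1 lower in RFP-only cells than in GFP-only cells, with a median of 2.15. Against RFP-only cells, 1 was higher and 2 lower in double-positive cells, with a median of -1.08. Dpp4, a surface peptidase of fibroblast progenitors, was 5.91 ± 0.86 higher in double-positive and 6.71 ± 0.86 higher in RFP-only cells than in GFP-only cells (limma adjusted p = 0.00256 and 0.000373), where it averaged 1.68 normalized counts. Pdgfra, a growth factor receptor of mesenchyme, was 1.67 ± 0.30 higher in double-positive cells than in GFP-only cells, and Lum, a small leucine-rich proteoglycan, was at -1.52 ± 0.31 (limma adjusted p = 0.00731 and 0.0138). The summed level of the list was 432761 to 920546 in double-positive libraries and 1126179 to 1460947 in RFP-only libraries, against 166906 to 744241 in GFP-only cells, and the first and last ranges overlapped.

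Of 12 tested genes of fat and fibro-adipogenic cells, 2 were higher in double-positive cells than in GFP-only cells, Plin2 and Cd36, at 1.15 ± 0.25 and 3.03 ± 0.59 (limma adjusted p = 0.0168 and 0.0106), and none was lower by limma (1 at an unadjusted p under 0.05, 0 by edgeR and 0 by DESeq2). Plin2 coats lipid droplets and Cd36 takes up fatty acids. They were also higher in RFP-only cells than in GFP-only cells, at 1.37 ± 0.25 and 2.69 ± 0.59 (limma adjusted p = 0.00283 and 0.00795), where Klf15, a zinc finger factor of adipocytes, was at -2.39 ± 0.40 (limma adjusted p = 0.00171). In that comparison the counts of 2 higher and 1 lower of 12 were close to the 11.8% and 8.48% of all genes. The list had a median log2 fold change of 0.61 in double-positive against GFP-only cells, 0.50 in RFP-only relative to GFP-only cells and -0.05 in double-positive against RFP-only cells. Between double-positive and RFP-only cells none passed by limma, with 2 higher and 0 lower at an unadjusted p under 0.05, 0 by edgeR, and 1 higher and 0 lower by DESeq2.

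**Figure D5:**
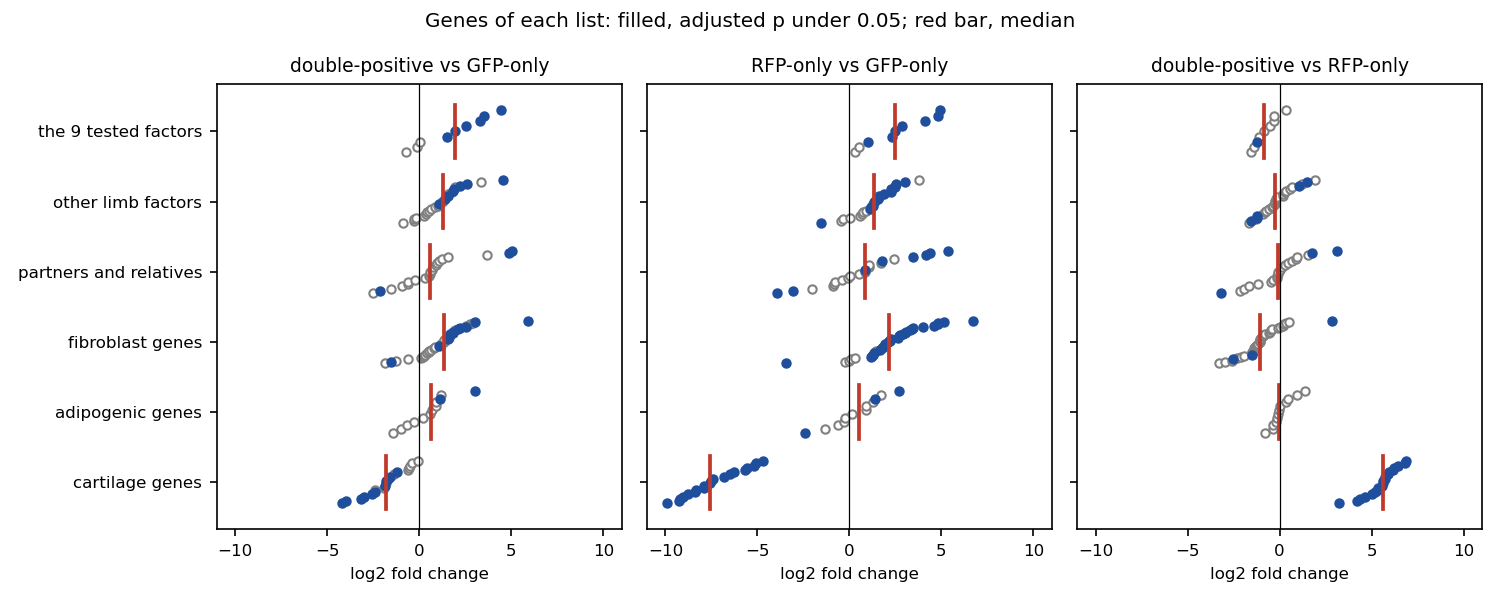
Log2 fold changes of the genes of each list by comparison, with filled points for genes at an adjusted p under 0.05, open points for the others and a red bar for the median. The cartilage list lies lowest in RFP-only relative to GFP-only cells, at a median of -7.55, and the fibroblast list lies above 0 there, at 2.15.

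Markers of other cell types differed between the populations as well. Of 20 cartilage genes, 11 were lower in double-positive and 20 in RFP-only cells than in GFP-only cells, and all 20 were higher in double-positive cells than in RFP-only cells, with a median of 5.62. Of 16 joint interzone genes, 8 were higher in double-positive cells than in GFP-only cells and 2 were lower, 9 were higher and 5 lower in RFP-only cells than in GFP-only cells, and 4 were higher in double-positive cells than in RFP-only cells. Of 19 skeletal muscle markers, 1 was higher and 1 lower in double-positive against GFP-only cells, 15 were higher in RFP-only cells than in GFP-only cells and 10 were lower in double-positive cells than in RFP-only cells, and their summed level was 1483 to 4325 in double-positive libraries and 11084 to 41029 in RFP-only libraries, against 2405 to 5073 in GFP-only cells. Of 15 endothelial markers, 2 were higher in double-positive and 8 in RFP-only cells than in GFP-only cells, with summed levels of 2291 to 8213, 6813 to 8797 and 1679 to 2964 in double-positive, RFP-only and GFP-only cells. Of 10 tested markers of pericytes and smooth muscle, 4 were higher in double-positive cells than in GFP-only cells, 9 were higher and 1 was lower in RFP-only cells than in GFP-only cells, and 1 was higher and 1 lower in double-positive cells than in RFP-only cells. The gene lower in RFP-only cells was Cspg4, a proteoglycan of pericytes and also of cartilage, at -3.61 ± 0.33 in RFP-only relative to GFP-only cells (limma adjusted p = 4.12e-05). Cspg4 averaged 7388 ± 3580.3 normalized counts in double-positive libraries and 1135 ± 356 in RFP-only libraries, against 13475 ± 1482 in GFP-only libraries (SD, n = 3 each). The summed level of the list, which includes Cspg4, was 9689 to 18662 in double-positive libraries and 11574 to 16787 in RFP-only libraries, against 13697 to 16605 in GFP-only libraries.

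Of 15 tested blood and immune markers, 10 were higher in double-positive cells than in GFP-only cells, and 6 were higher and 1 lower in RFP-only cells than in GFP-only cells, with sums of 3063 to 19012 in double-positive libraries and 1693 to 4980.2 in RFP-only libraries, against 1275 to 2031 in GFP-only cells. Of 10 erythroid markers 2 were higher in RFP-only cells than in GFP-only cells and 2 were lower in double-positive cells than in RFP-only cells. Of 12 tested Schwann cell and neuron markers 2 were higher and 3 lower in double-positive against GFP-only cells, 5 were higher and 3 lower in RFP-only relative to GFP-only cells, and 1 was higher and 3 lower in double-positive against RFP-only cells. Of 10 epidermal markers 1 was higher and 1 lower in RFP-only relative to GFP-only cells. In that comparison 11.8% of all genes were higher and 8.48% lower. The part of these cell types in the factors' levels was not tested.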

How the data were processed

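The authors deposited a table of normalized counts per Ensembl gene, a signal in which the counts of each library are divided by 1 factor. Per the submitters' processing notes FastQC, STAR, Salmon, DESeq2 and mm10 were used, with no role given. Every value was a whole multiple, within 0.001 reads, of its library's smallest value above 0, so 100% of values gave whole reads. Of the identifiers, 54495 matched GENCODE M21 and 37 did not.

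The 17764 genes with a mean of at least 10 were tested on log2(normalized count + 1) by limma 3.58.1 in R 4.3.3, its prior variance following the mean, on all 9 libraries together, two-sided, with Benjamini-Hochberg adjustment over all tested genes and a threshold of 0.05. Fold changes on that scale understate those of low genes. The script was tested on simulated data. Alternatives included edgeR 4.0.16 and DESeq2 1.42.0, run on the recovered reads. Ratios of paralogues were tested by exact permutation of the population labels, with the F statistic for any difference among the populations.

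The litters pair the libraries by label: deviations from the group means correlated with a median of 0.103 within litters (9 pairs) and -0.0409 between litters (18 pairs). Deviations cancel within each group, so a positive value within litters goes with a negative one between litters. The consensus correlation within litters, from limma, was 0.0169. Genes named from a list were, per comparison, at most 4 with the smallest adjusted p among those called in the more frequent direction and at most 2 in the other, and partners could be named whether or not they passed. The factors and all 13 lists were chosen with earlier results of these data known.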

Additional observations from a re-analysis of the deposited data

How the results depend on the processing

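With the litter as a fixed replicate block, 2 factors were lower in double-positive cells than in RFP-only cells, against 1 without it, and the block changed no other limma call. The count lower than in RFP-only cells was 3 with quantile normalization, 0 with no mean-variance trend, 5 with only the 2 populations fitted, 4 with DESeq2, and 0 to 4 on leaving out libraries or litters, with 4 when the GFP-only library of litter 5 was left out. The count lower in double-positive cells than in GFP-only cells was 1 with DESeq2. The count higher in double-positive cells than in GFP-only cells ranged from 2 to 6 on leaving out libraries or litters. The count differing across the 3 populations ranged from 5 to 8. The low ends came with litter 1 or 2 left out, which leaves 2 libraries per population. In RFP-only cells the calls of Osr1, Osr2, Meox1, Meox2 and Ebf2 against GFP-only cells held under all 24 alternatives. Those of Ebf3 and Ebf1 held under 23 and 15. Shares of all genes called under these alternatives are not given here, so these counts have no background beside them. Permuting labels within litters left the Ebf1 to Ebf2 ratio above the threshold (exact p 0.0556 adjusted over the 6 ratios), although its unadjusted p was the smallest possible. Leaving out a whole litter changed several called folds against GFP-only cells by over 1.5 times. The values that follow are log2 fold changes. In double-positive cells Osr2 was 3.80 without litter 1, Ebf3 was 1.29 without litter 2, which ended its call, and 2.58 without litter 5, and Ebf2 was 2.58 without litter 5. In RFP-only cells Meox1 was 2.21 without litter 5, and Ebf2 was 5.54 without litter 2 and 3.86 without litter 5. Fold changes that reversed sign had all missed the threshold. For double-positive against RFP-only cells, Meox1 was at 0.00094 when litter 5 was left out. For double-positive against GFP-only cells, Ebf1 ranged from -0.46 to 0.032 when 1 library was left out and was 0.18 without litter 1, and Prrx1 ranged from -0.26 to 0.17 and was -0.12 without litter 5 and -0.020 with DESeq2. The cause of these shifts was not tested. Of 648 fold changes under alternatives, 587 kept their direction and side of the threshold.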
